A study of Homo sapiens with 6 samples.

Results

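The genes examined here encode the enzymes and complexes that write, read and erase methylation of histone H3 at H3K27 and H3K4. There were 42 such genes out of 20033 protein-coding genes of GENCODE 44, taken by name and not by any measured value: 16 genes of Polycomb repressive complex 1 (PRC1), 11 of Polycomb repressive complex 2 (PRC2), the 2 KDM6 demethylases and 13 of the COMPASS family. The readout was ATAC-seq, a method that marks accessible chromatin by letting the transposase Tn5 place sequencing adapters into open DNA. The cells were human neural progenitor cells (NPCs) from the embryonic stem cell line H1, in 6 samples that formed 3 groups of 2 replicates. WT NPCs were unmodified. dKO NPCs carried the UTX and JMJD3 knockout, made in the stem cells with CRISPR/Cas9 by removing a catalytic segment of KDM6A, which encodes UTX, and of KDM6B, which encodes JMJD3, so that the starts of both genes stayed in place. The group named dKO NPC + BAF53B carried the same knockout and expressed BAF53B, a neuron-specific subunit of the BAF remodelling complex, from a lentivirus. The labels call the cells of this group NPCs while the study's figure legend for these data speaks of differentiated cells, and samples of dKO cells with an empty virus were not analysed here. A difference between this group and the dKO NPCs can therefore not be told apart from an effect of the virus or of the stage of the cells. The number of knockout clones behind the ATAC-seq samples is not given in the sources used here.

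PRC2 trimethylates H3K27 through EZH1 or EZH2, and this mark is bound by the CBX subunits of canonical PRC1, whose RING1 or RNF2 subunit ubiquitinates histone H2A at repressed developmental genes. UTX and JMJD3 remove the same mark, and UTX is itself a subunit of the COMPASS complexes built around KMT2C or KMT2D. COMPASS complexes methylate H3K4, a mark of active promoters and enhancers, and in stem and progenitor cells the Polycomb and COMPASS marks are known to lie together on many genes that are poised for later use.

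Each group was represented by 1 list of peaks called on its pooled replicates, with 7880 peaks for WT NPCs, 25439 for dKO NPCs and 16948 for dKO NPC + BAF53B. A peak was counted as a promoter peak when it overlapped the 3 kb on either side of the gene start, and as a gene body peak when it overlapped the gene outside of that window. The size of a peak is given as its pileup, the whole number of fragments over its summit. Because the lists differed in depth, with genome backgrounds of 6.33, 6.81 and 6.78 fragments per position for WT, dKO and dKO NPC + BAF53B, a ratio between lists was taken after division of each pileup by this background. With 1 pooled list per group there were no replicate values, no SD and no test, so each ratio has a 95% interval that covers the counting of fragments only, and differences describe these pooled libraries. A gene without a peak was one that did not reach the threshold of that list, where the smallest pileup was 25 or 26 fragments, and its chromatin is not shown to be closed.

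The accessible DNA under 8 of the member peaks is shown first, because these sites carry the values described next. The letters are hg38 sequence, 141 bases centred on the summit and written 5′ to 3′ on the strand of the gene, and the capitals mark matches to the short motifs GGGCGG (SP/KLF), CCAAT (NFY), TGACGTCA (CRE), CGCATGCG (the core of the NRF1 motif) and AAGATGGC (YY1) on either strand, which can overlap. The first sequence is the peak upstream of KDM6A that was absent from the WT list. The next pair are the shared site and the strongest site in intron 1 of KDM6B. EZH2 stands for a promoter with nearly the same pileup in each list. KMT2A and PAGR1 stand for COMPASS promoters with larger pileups in dKO NPCs. The KMT2A window is centred on the strongest WT summit and does not hold the dKO summit. KMT2C stands for a promoter peak of the dKO and dKO NPC + BAF53B lists, and CBX8 for a site that lay outside the promoter window of the gene record.
KDM6A dKO, chrX:44872914-44873054, plus strand: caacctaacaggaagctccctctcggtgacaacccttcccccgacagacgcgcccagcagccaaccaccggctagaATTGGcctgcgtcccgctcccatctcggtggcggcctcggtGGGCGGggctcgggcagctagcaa
KDM6B dKO, chr17:7835576-7835716, plus strand: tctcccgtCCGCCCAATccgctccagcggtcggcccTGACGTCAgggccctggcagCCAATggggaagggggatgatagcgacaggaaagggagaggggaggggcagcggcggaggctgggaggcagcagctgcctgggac
KDM6B dKO, chr17:7836899-7837039, plus strand: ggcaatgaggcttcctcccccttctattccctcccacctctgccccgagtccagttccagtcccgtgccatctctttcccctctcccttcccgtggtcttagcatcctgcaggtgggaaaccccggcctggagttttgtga
EZH2 dKO, chr7:148884340-148884480, minus strand: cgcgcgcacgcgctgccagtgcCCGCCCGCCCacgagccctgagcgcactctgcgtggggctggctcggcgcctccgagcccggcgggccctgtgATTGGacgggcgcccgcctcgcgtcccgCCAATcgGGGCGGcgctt
KMT2A WT, chr11:118435431-118435571, plus strand: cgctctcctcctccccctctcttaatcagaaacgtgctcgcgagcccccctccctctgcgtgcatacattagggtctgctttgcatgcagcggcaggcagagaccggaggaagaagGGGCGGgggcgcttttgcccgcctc
PAGR1 WT, chr16:29815953-29816093, plus strand: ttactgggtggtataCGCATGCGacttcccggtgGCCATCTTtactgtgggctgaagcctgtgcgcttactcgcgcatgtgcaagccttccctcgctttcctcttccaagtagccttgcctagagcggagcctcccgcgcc
KMT2C dKO, chr7:152436740-152436880, minus strand: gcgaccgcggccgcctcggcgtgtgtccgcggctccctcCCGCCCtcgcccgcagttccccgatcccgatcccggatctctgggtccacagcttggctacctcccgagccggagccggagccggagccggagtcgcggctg
CBX8 dKO, chr17:79797229-79797369, minus strand: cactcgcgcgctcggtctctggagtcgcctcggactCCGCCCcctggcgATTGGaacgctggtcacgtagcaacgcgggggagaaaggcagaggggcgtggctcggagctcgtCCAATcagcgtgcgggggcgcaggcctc

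More of these genes had a promoter peak in the dKO list than in the WT list, and none had one in the WT list alone. In WT NPCs 16 of the 42 genes had a promoter peak (38.1%), beside 28.2% of all protein-coding genes. In dKO NPCs there were 29 (69.0%), beside 56.4% of all genes. In dKO NPC + BAF53B there were 27 (64.3%), beside 45.0%. The members lay above the background in each list, and in both knockout groups more members and more of all genes had a promoter peak than in WT NPCs. Peaks in dKO and not in WT were found at 13 members (31.0%), close to the 28.6% of all genes, and peaks in WT and not in dKO at 0 members, beside 0.399% of all genes. With a minimum −log10 q of 10, the count in dKO and not in WT was 20 of the 42 members, beside 28.2% of all genes. Peaks in all 3 lists were found at 15 members, or 35.7% beside 26.8% of all genes, and 10 members (23.8%) had a promoter peak in no list, beside 41.3%. The differences between lists were smaller once the lists were made equally long. When only the 7880 peaks of highest −log10 q were kept in each, promoter peaks were found at 16, 19 and 19 members, beside 28.2%, 33.3% and 31.1% of all genes, with 7 members in dKO but not in WT NPCs, beside 9.36% of all genes, and 4 in WT and not in dKO (EZH2, PCGF3, PHC3 and KMT2D), beside 4.24%.

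The counts by complex depended on the length of the lists and on which start was used. By gene record, COMPASS genes went from 5 of 13 in WT NPCs to 11 of 13 in each of the other lists, and each of its 13 genes had a promoter peak in at least 1 list. PRC2 genes went from 5 of 11 to 7 in each of the other lists, and PRC1 genes from 5 of 16 to 9 in dKO NPCs and 7 in dKO NPC + BAF53B. The 10 genes without a promoter peak were 6 of PRC1 and 4 of PRC2, of which 3 lay in the stretches without peaks described later. With lists of equal length, PRC1 had 5 genes in WT and 5 in dKO, PRC2 also 5 and 5, and COMPASS 5 and 7. With the start of the canonical transcript in place of the gene record, a choice added after the data had been seen, the dKO list had a promoter peak at 11 of 16 PRC1, 10 of 11 PRC2 and 11 of 13 COMPASS genes. With 2 to 16 genes in a complex these counts are a description, and the differences between complexes were not tested.

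**Figure D1:**
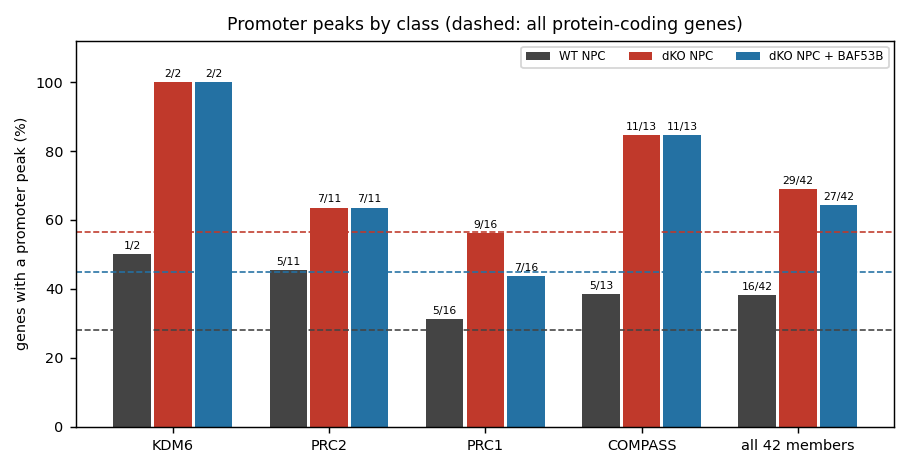
Share of genes with a promoter peak (%), by complex and list, with the number of genes above each bar and dashed lines for all protein-coding genes in the colour of the list. Starts are those of the gene records, by which COMPASS reaches 84.6% and PRC1 56.2% in dKO NPCs. By canonical starts, not drawn, the dKO counts are 11 of 13 for COMPASS, 10 of 11 for PRC2 and 11 of 16 for PRC1.

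KDM6A (ENSG00000147050.18, hg38, chrX:44873188-45112779, plus strand) and KDM6B (ENSG00000132510.11, chr17:7834217-7854796, plus strand) are the targeted genes. Since their starts were left in place, peaks there do not check the genotype. KDM6A had no promoter peak in WT NPCs, where the nearest peak lay 330.2 kb away. The summit pileup was 45 fragments (95% interval 32.8 to 60.2) in dKO NPCs and 32 (21.9 to 45.2) in dKO NPC + BAF53B, at 204 bp and 188 bp upstream of the gene start. The ratio of dKO NPC + BAF53B to dKO was 0.715 (0.440 to 1.15), so these pileups were not distinguishable by counting error. Both were small for their lists, at percentile 30.2 of the promoter pileups of all genes in dKO NPCs and 7.99 in dKO NPC + BAF53B. KDM6A lies on the X chromosome, and the study writes its knockout as UTX−/Y, so it has fewer copies than autosomal genes. Pileups, percentiles and the threshold of the lists were not corrected for copy number.

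KDM6B had the largest promoter pileup of the 42 genes, in each list except dKO NPC + BAF53B, where RBBP4 had 85 fragments. Its strongest promoter peak had 53 fragments in WT NPCs, 173 in dKO NPCs and 71 in dKO NPC + BAF53B, which put it at percentiles 82.0, 99.0 and 88.4 of all genes. The peaks were not at the same place. In WT NPCs the summit lay 1409 bp inside the gene, and in both knockout groups the strongest summit lay further into intron 1, at 2752 bp and 2750 bp, where WT NPCs had no peak. At the shared site the pileups were 53 fragments in WT, 118 in dKO and 60 in dKO NPC + BAF53B, a ratio of 2.07 (1.48 to 2.92) for dKO over WT and 0.511 (0.368 to 0.703) for dKO NPC + BAF53B over dKO. The WT and dKO NPC + BAF53B pileups at this site were thus close, with the dKO pileup above both. A further site, about 0.3 kb upstream of the gene start, was called only in the knockout groups, with 68 fragments in dKO NPCs and 52 in dKO NPC + BAF53B.

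Inside KDM6B, WT NPCs had 2 gene body peaks and dKO NPCs had 3, while dKO NPC + BAF53B had 0. A peak at about 10.7 kb from the gene start had 38 fragments in WT and 75 in dKO, a ratio of 1.83 (1.23 to 2.79). A peak at about 17.7 kb, which overlapped exons 18 and 19 and had its summit in intron 18 of the canonical transcript of 24 exons, had 36 fragments in WT and 72 in dKO, a ratio of 1.86 (1.23 to 2.86). The guide RNA that the study lists for the JMJD3 knockout matches, on the opposite strand, DNA under this peak in exon 19. The ratio of 1.86 is therefore taken at the targeted site. The bounds of the deleted segment were not used here, and the exon numbers of the study may follow another transcript. The peak thus does not settle which DNA was left. KDM6A had 0 gene body peaks in each list.

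**Figure D2:**
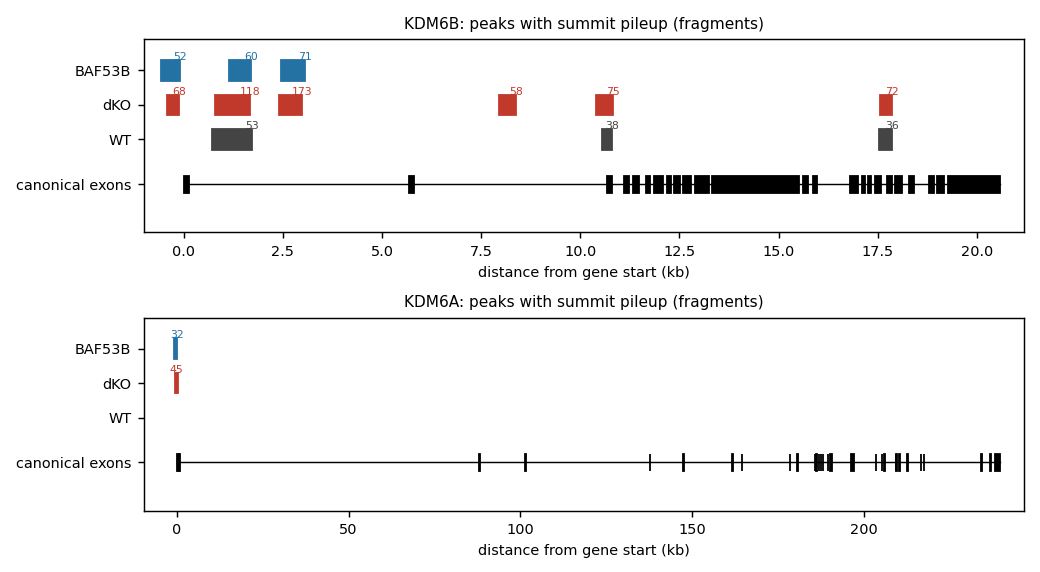
Peaks of the 3 lists along KDM6B and KDM6A, as distance from the gene start in kb, with the summit pileup in fragments above each peak and the exons of the canonical transcript as black boxes. At KDM6B the dKO list has 6 peaks of 58 to 173 fragments, the WT list 3 of 36 to 53 and the dKO NPC + BAF53B list 3 of 52 to 71, whereas KDM6A has peaks only at its start, of 45 and 32 fragments.

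The catalytic subunits of PRC2 are EZH1 and EZH2. EZH2 (ENSG00000106462.12, chr7:148807257-148884321, minus strand), the methyltransferase of dividing cells, had nearly the same pileup in the 3 lists, 41 in WT, 44 in dKO and 43 in dKO NPC + BAF53B. Its dKO over WT ratio was 0.997 (0.637 to 1.57), the lowest of the 16 genes with a promoter peak in both lists. EZH1 (ENSG00000108799.13, chr17:42700275-42745049, minus strand), the paralog that predominates in non-dividing cells, had 34, 62 and 35 fragments, with a dKO over WT ratio of 1.69 (1.10 to 2.66) and a dKO NPC + BAF53B over dKO ratio of 0.568 (0.364 to 0.873). On the log2 scale the dKO over WT ratios were −0.004 at EZH2 and 0.76 at EZH1. The median over all genes with a promoter peak in both lists was 0.77. The intervals of the dKO over WT ratios of EZH1 and EZH2 overlapped, so a difference between the paralogs is not shown by them.

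SUZ12 and EED hold the core of PRC2 together. SUZ12 had pileups near those of EZH1, with 30 fragments in WT, 55 in dKO and 32 in dKO NPC + BAF53B. Its dKO over WT ratio was 1.70 (1.07 to 2.75), a log2 ratio of 0.77, beside a median of 0.77 for all genes. EED had no promoter peak by its gene record, and its peak at the canonical start is described with the genes of that kind. The histone chaperones RBBP4 and RBBP7, which PRC2 shares with other complexes, differed in presence. RBBP4 had 48, 98 and 85 fragments, and it was the only member of the 15 with peaks in both lists whose dKO NPC + BAF53B over WT ratio had an interval above 1, at 1.65 (1.15 to 2.41), although its peak also covers the start of the neighbouring gene ZBTB8OS. RBBP7, which like KDM6A lies on the X chromosome, had no WT peak and 37 and 26 fragments in the other lists, not corrected for copy number. Of the accessory subunits, MTF2, which brings PRC2 to CpG islands, had 34, 60 and 54 fragments, and JARID2, the substrate-like subunit that helps to stimulate the enzyme, had no WT promoter peak and 68 and 59 fragments in the others.

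In PRC1 the E3 ligase RNF2 had a promoter peak in each list, with 35 fragments in WT, 50 in dKO and 47 in dKO NPC + BAF53B. The ratio of dKO over WT was 1.33 (0.845 to 2.11). Among the PCGF subunits, which set the type of PRC1, PCGF1 had 48, 63 and 59 fragments and PCGF3 had 37, 54 and 50, with dKO over WT ratios of 1.22 (0.825 to 1.81) and 1.36 (0.876 to 2.12). These PRC1 genes were higher in dKO NPCs by amounts within counting error. PCGF6 was found in the dKO NPC + BAF53B list alone, with 29 fragments, 490 bp inside the gene.

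The chromodomain genes CBX2, CBX6 and CBX7, whose products bind H3K27 trimethylation, had promoter peaks in dKO NPCs and not in WT NPCs. The same was found at 28.6% of all genes. The dKO pileups of CBX2, CBX6 and CBX7 were 49, 78 and 52 fragments. With lists of equal length, CBX6 alone of these genes had a dKO promoter peak. CBX8, the other chromodomain gene among the members, had a peak at its canonical start in each list, as described later. CBX2 and CBX6 were absent again from the dKO NPC + BAF53B list, while CBX7 had 58 fragments there, a ratio to dKO of 1.12 (0.758 to 1.66). The polyhomeotic genes, whose products let PRC1 oligomerise, covered the range. PHC1 was present in dKO NPCs alone, with 57 fragments. PHC2 had 39, 86 and 58 fragments. By gene record it was the one PRC1 gene whose dKO over WT interval lay above 1, at 2.05 (1.39 to 3.07). By canonical start CBX8 also had such an interval, at 1.80 (1.31 to 2.49). PHC3 had 29, 33 and 37 fragments, a ratio of 1.06 (0.623 to 1.81).

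By the strongest promoter peak, the COMPASS genes KMT2B, PAGR1 and KMT2A had the largest dKO over WT ratios after KDM6B. The KDM6B ratio of 3.03 was between different sites. At its shared site it was 2.07, below the ratios of these COMPASS genes. KMT2B (ENSG00000272333.8, chr19:35717973-35738880, plus strand) had 46 fragments in WT, 121 in dKO and 52 in dKO NPC + BAF53B, a dKO over WT ratio of 2.44 (1.73 to 3.51). Its strongest summit lay 941 bp upstream of the gene start in dKO NPCs, at the end of the neighbouring gene ZBTB32, and its second site, 309 bp upstream, had 40 fragments in WT and 96 in dKO, a ratio of 2.23 (1.53 to 3.31). KMT2A (ENSG00000118058.25, chr11:118436456-118526832, plus strand) had 46, 107 and 52 fragments, a dKO over WT ratio of 2.16 (1.52 to 3.12). These summits were not at the same place. The dKO summit lay 317 bp upstream of the gene start, and the strongest WT and dKO NPC + BAF53B summits lay 955 bp and 940 bp upstream. The other WT peak of KMT2A, 202 bp upstream, had 38 fragments, a dKO over WT ratio of 2.62 (1.79 to 3.90). PAGR1 (ENSG00000280789.2, chr16:29816152-29822489, plus strand), a subunit of the KMT2C and KMT2D complexes, had 49, 116 and 70 fragments, a ratio of 2.20 (1.56 to 3.14). Its peak overlapped the promoter window of a further gene record, ENSG00000281348. For KMT2A and KMT2B, the pileups in dKO NPC + BAF53B were back near WT, with a dKO NPC + BAF53B over WT ratio of 1.06 (0.697 to 1.61) at each gene.

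The enhancer methyltransferases KMT2C and KMT2D, the partners of UTX, had promoter peaks in different lists. KMT2C had no WT promoter peak, 58 fragments in dKO NPCs and 37 in dKO NPC + BAF53B, a ratio of 0.641 (0.413 to 0.985). KMT2D had 34 fragments in WT, 57 in dKO and no promoter peak in dKO NPC + BAF53B, and it was the only one of the 16 genes with a WT promoter peak that lacked one there. Its dKO over WT ratio of 1.56 (1.002 to 2.46) had a lower bound next to 1. The WT peak of KMT2D had a −log10 q of 5.38, near the threshold of 5. The difference in presence between KMT2C and KMT2D was not tested. Of the enzymes that set most promoter H3K4 trimethylation, SETD1B had 71 fragments in dKO NPCs and 57 in dKO NPC + BAF53B, at a site that is also in the promoter window of RHOF, and SETD1A had a promoter peak in dKO NPC + BAF53B alone, with 40 fragments.

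The core subunits shared by all COMPASS complexes are WDR5, RBBP5, ASH2L and DPY30. RBBP5 was the one with a WT promoter peak, with 40, 81 and 52 fragments and a dKO over WT ratio of 1.88 (1.27 to 2.82). ASH2L had 41 fragments in dKO NPCs and 42 in dKO NPC + BAF53B, DPY30 had 57 and 47, and WDR5 had a promoter peak in dKO NPC + BAF53B alone, with 37 fragments. The core genes thus entered the lists at different points. NCOA6, a further subunit of the KMT2C and KMT2D complexes, had 35 and 30 fragments in the knockout groups, and PAXIP1, which pairs with PAGR1, had 47 fragments in dKO NPCs alone.

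**Figure D3:**
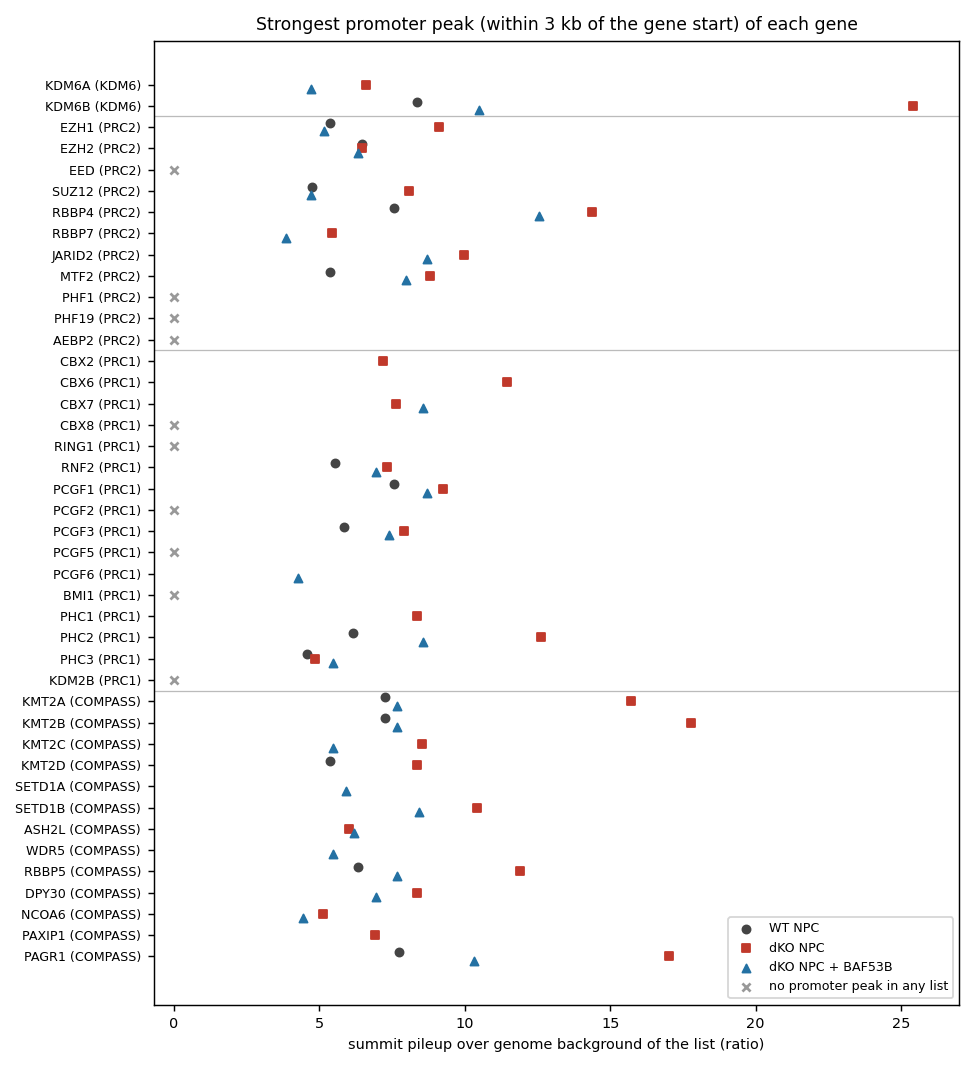
Strongest promoter peak of each of the 42 genes as summit pileup over the genome background of its list, grouped by complex, with circles for WT NPCs, squares for dKO NPCs and triangles for dKO NPC + BAF53B, and a grey cross for the 10 genes with no promoter peak in any list. KDM6B in dKO NPCs stands at 25.4 times the background, followed by KMT2B at 17.8 and PAGR1 at 17.0.

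Across the 16 members whose promoters had peaks in WT as well as dKO NPCs, the median log2 ratio of dKO over WT was 0.77, and across the 5576 genes of that kind it was also 0.77. The ratio was above 1 at 15 of the 16 members and at 96.3% of all genes. Its counting interval lay above 1 at 11 of the 16 members (68.8%), beside 66.7% of all genes, so the members as a whole stood at the background. By complex and gene record the interval lay above 1 at 5 of 5 COMPASS genes, 4 of 5 PRC2 genes, 1 of 5 PRC1 genes and at KDM6B. By canonical start it also lay above 1 at CBX8 of PRC1, at 1.80 (1.31 to 2.49). At EED of PRC2 it included 1, at 1.48 (0.934 to 2.38). The median log2 ratio was 1.11 for COMPASS, 0.76 for PRC2 and 0.41 for PRC1, with 5 genes each. The 4 highest ratios were those of KDM6B at 3.03 (2.22 to 4.21, between different sites), KMT2B, PAGR1 and KMT2A, and the 4 lowest were those of EZH2, PHC3, PCGF1 and RNF2. The KMT2A ratio was also between summits at different places. The difference between COMPASS and PRC1 was not tested, since their genes are not replicates.

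Among the 13 members whose promoter peak was new to the dKO list relative to WT NPCs, the deposited fold over the local background in dKO NPCs was highest at KMT2C, at 6.65. It was 5.89 at KDM6A, 5.42 at DPY30, 5.04 at PHC1 and 4.86 at RBBP7. Over all 13 the median fold was 4.08, with a range from 3.10 to 6.65, and over the 16 members found in both lists it was 5.24, with a range from 3.49 to 7.24. The median promoter pileup of all members was 39.5 fragments in WT (16 genes), 57 in dKO (29) and 47 in dKO NPC + BAF53B (27), beside 40, 57 and 46 for all genes with a promoter peak. The strongest promoter peaks of members had a median width of 484 bp in WT, 913 bp in dKO and 864 bp in dKO NPC + BAF53B, beside 570, 811 and 781 bp for all genes, and their summits lay within 500 bp of the gene start at 13 of 16, 26 of 29 and 22 of 27 genes, beside 82.9%, 78.4% and 80.0% of all genes.

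**Figure D4:**
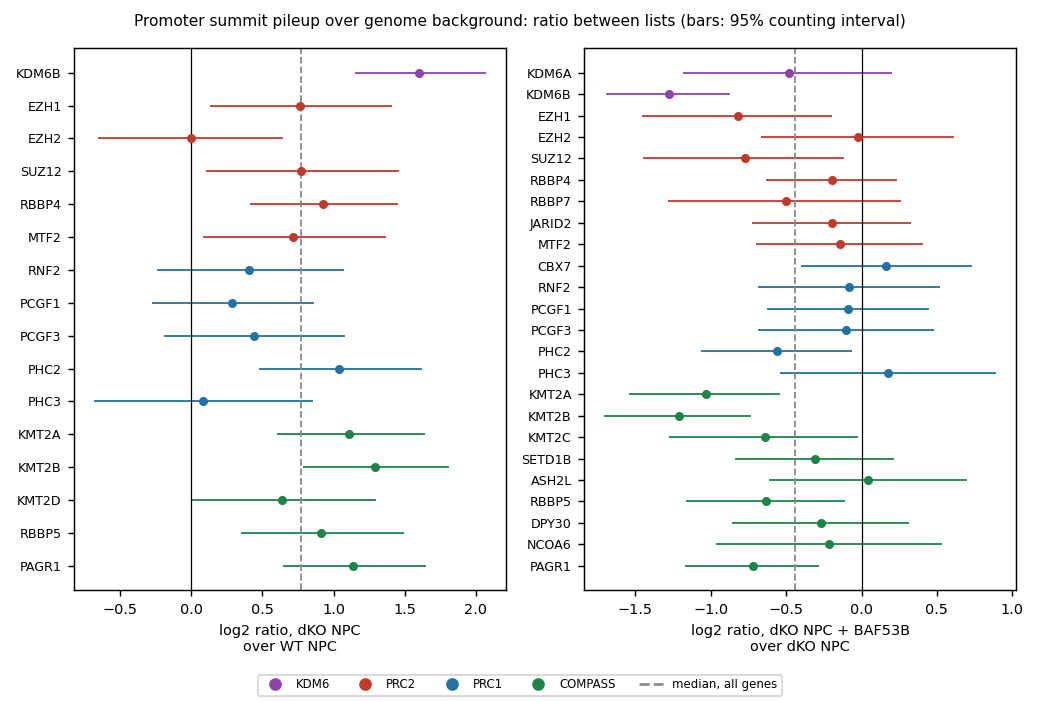
Log2 ratio of the promoter summit pileup over the genome background, for dKO over WT (16 genes, left) and dKO NPC + BAF53B over dKO (24 genes, right), with 95% counting intervals as bars, colours for the complexes and a dashed line at the median of all genes. On the left the 5 COMPASS genes lie at 0.64 to 1.29, and on the right KDM6B, KMT2B and KMT2A lie lowest, at −1.28, −1.21 and −1.03.

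With BAF53B, 24 members had a promoter peak in both knockout groups. The median log2 ratio of dKO NPC + BAF53B over dKO was −0.29, beside −0.44 for 8604 genes, and the ratio was below 1 at 21 of the 24 members (87.5%), beside 86.3% of all genes. Its interval lay below 1 at 9 members (37.5%), beside 39.2% of all genes. These were KDM6B, EZH1, SUZ12, PHC2, KMT2A, KMT2B, KMT2C, RBBP5 and PAGR1, of which all except KMT2C also had a dKO over WT interval above 1. The comparisons share the dKO list, so a high dKO pileup enters both ratios. The lowest ratios were 0.413 (0.308 to 0.547) at KDM6B, 0.432 (0.306 to 0.603) at KMT2B, 0.489 (0.344 to 0.687, between summits at different places) at KMT2A and 0.568 at EZH1. The highest were 1.13 (0.686 to 1.86) at PHC3, 1.12 at CBX7, 1.03 (0.654 to 1.62) at ASH2L and 0.982 (0.630 to 1.53) at EZH2. Against WT NPCs, the 15 members with peaks in both lists had a median log2 ratio of 0.28 in dKO NPC + BAF53B, beside 0.27 for 5397 genes.

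Members also entered and left the list with BAF53B. The dKO promoter peak had no counterpart in dKO NPC + BAF53B at 5 members, CBX2, CBX6, PHC1, KMT2D and PAXIP1, or 11.9% beside 13.5% of all genes. The reverse was found at 3, PCGF6, SETD1A and WDR5, or 7.14% beside 2.05%. The peaks of these 3 genes were small, at 29, 40 and 37 fragments with −log10 q of 5.58, 6.97 and 6.18, near the threshold of 5.

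The 10 members without a promoter peak were of 3 kinds. For 5 of them the gene record starts far upstream of the canonical transcript, and peaks were found at the latter, an assignment added after the data had been seen. CBX8 (canonical start 4606 bp inside the gene record) had 62 fragments in WT, 120 in dKO and 74 in dKO NPC + BAF53B there, with a dKO over WT ratio of 1.80 (1.31 to 2.49). EED (43541 bp) had 32, 51 and 45 fragments, a ratio of 1.48 (0.934 to 2.38). AEBP2 (35447 bp), an accessory subunit of PRC2, had no WT peak and 36 and 41 fragments in the knockout groups. PCGF5 (57651 bp) and PHF19 (17708 bp) had peaks in dKO NPCs alone, of 50 and 40 fragments. With canonical starts, promoter peaks were found at 18 members in WT, 34 in dKO and 30 in dKO NPC + BAF53B, beside 29.0%, 58.7% and 46.6% of all genes.

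RING1, PHF1 and PCGF2 lay in long stretches of the genome that held no peak in any list. RING1, the second E3 ligase of PRC1, and PHF1, a relative of MTF2, lay in chr6:28490265-33497817, a stretch of 5.01 Mb with the starts of 183 protein-coding genes. PCGF2 lay in chr17:35765074-38853388, a stretch of 3.09 Mb with 55 gene starts. No other stretch without peaks held more than 36. On the rest of chromosome 6, 548 of 868 genes (63.1%) had a dKO promoter peak. For these 3 genes the lists analysed here give no value, and their counts as genes without a peak say nothing of their chromatin.

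BMI1 and KDM2B were the remaining members without a promoter peak by gene record, and they had none by canonical start. With the starts of all transcripts, BMI1 had a promoter peak in dKO NPCs, and KDM2B had one in both knockout groups. BMI1, the PCGF subunit known from stem cell self-renewal, had its nearest peak in dKO NPCs 4674 bp inside the gene, in intron 1, with 38 fragments, and in dKO NPC + BAF53B 4620 bp upstream, with 42 fragments. KDM2B, which brings a variant PRC1 to CpG islands, had its nearest dKO peak 28.2 kb inside the gene.

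**Figure D5:**
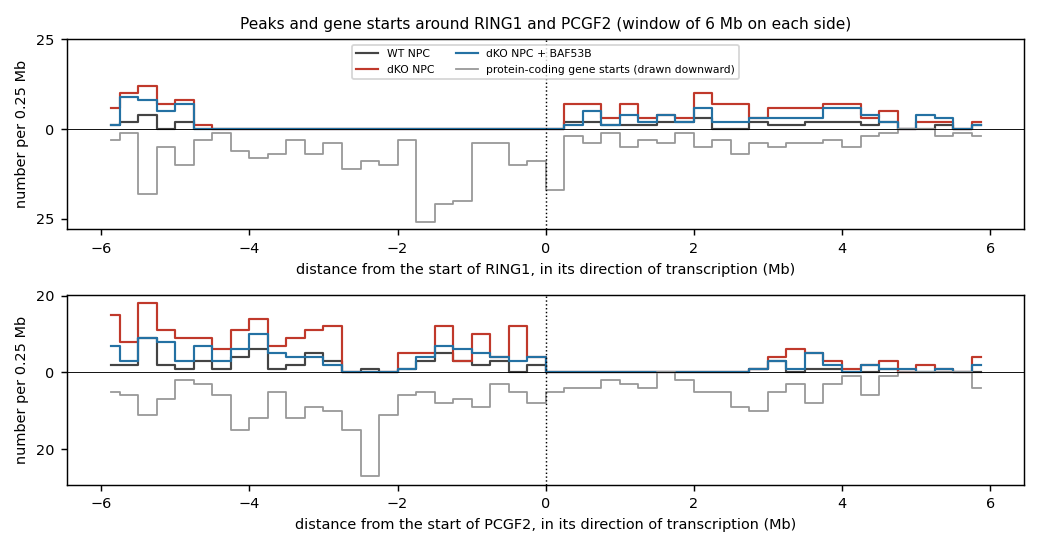
Number of peaks per 0.25 Mb in each list (upward) and of protein-coding gene starts (downward) within 6 Mb of RING1 and PCGF2, against the distance from the gene start in Mb. All 3 peak counts are at 0 over 5.01 Mb around RING1 and 3.09 Mb at PCGF2 while gene starts continue.

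Gene body peaks were found at 7 members in WT NPCs, 16 in dKO NPCs and 12 in dKO NPC + BAF53B, or 16.7%, 38.1% and 28.6%, beside 9.34%, 27.1% and 19.8% of all genes. Many of these genes are long, and some of the peaks belong to other starts. The gene body peaks of DPY30 lay at the promoter of MEMO1, those of KMT2D at PRKAG1 and those of NCOA6 at TP53INP2. KMT2C (302 kb) had 3 in WT, 3 in dKO and 4 in dKO NPC + BAF53B, all in intron 1 at 29.8 to 42.2 kb from the start. Copies of KMT2C sequence lie elsewhere in the genome, so these peaks are uncertain. Their deposited folds were 2.54 to 3.47, and at the one region found in all 3 lists the pileups were 54, 55 and 52 fragments. The dKO over WT ratio there was 0.947 (0.638 to 1.40). The dKO NPC + BAF53B over dKO ratio was 0.950 (0.638 to 1.41). Both intervals included 1. The KMT2C promoter had no WT pileup to compare.

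PHC2 (107 kb) had 0 gene body peaks in WT and 5 in each knockout group. Of the 5 in dKO NPCs 4 overlapped one with BAF53B, with ratios between 0.749 and 1.08 whose intervals included 1. The fifth, in intron 7 at chr1:33363736-33364833, had 104 fragments and was called in dKO NPCs alone. JARID2 (276 kb) had 1, 2 and 3 gene body peaks in introns 1 and 2. KDM2B (152 kb) had 0, 4 and 1, PCGF3 had 0, 3 and 0, and KDM6B had 2, 3 and 0. At KDM2B the strongest, in intron 12 at chr12:121466973-121468110, had 70 fragments in dKO NPCs alone.

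The DNA under the promoter summits was rich in G and C, as in promoters at large. Within 100 bp of the strongest summit, members had a median GC content of 67.7% in WT, 68.7% in dKO and 66.7% in dKO NPC + BAF53B, beside 65.2%, 67.2% and 66.7% for all genes with a promoter peak. In dKO NPCs GGGCGG, bound by SP and KLF factors, was found at 22 of 29 members (75.9%), beside 65.0% of all genes, and CCAAT, bound by NFY, at 8 (27.6%), beside 32.7%. CCGGAAG, an ETS motif, was found at PCGF1 alone (3.45%, beside 16.4%). AAGATGGC, bound by YY1, was found at 3 members, PAGR1, PCGF1 and PHC3 (10.3%, beside 3.57%), and CGCATGCG, the NRF1 core, at PAGR1 and PHC3 (6.90%, beside 3.37%). CACGTG, an E-box, was found at 4 (13.8%, beside 7.92%), TGACTCA or TGAGTCA, bound by AP-1, at KDM6A alone (3.45%, beside 1.57%) and TGACGTCA, a CRE, at 0 (beside 2.65%).

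The sites of KDM6B printed above differ in these letters. The shared site at 1429 bp holds CCGCCC and CCAAT, which overlap, as well as TGACGTCA and a further CCAAT within its 141 bases, and the stronger site at 2752 bp holds none of the motifs marked. In EZH2 the printed window holds several copies of both GGGCGG and CCAAT. A match is a description of the letters and not a site of binding.

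A further 30 genes that work with these complexes were counted in the same way. Promoter peaks were found at 17 in WT, 25 in dKO and 22 in dKO NPC + BAF53B, beside the shares of all genes given above, with 8 in dKO and not in WT and 0 the other way. The median log2 ratio of dKO over WT was 0.85 over 17 genes. The highest deposited folds in dKO NPCs were those of CXXC1, the CpG-binding subunit of SETD1 complexes, at 9.41 (pileups of 71, 161 and 100 fragments), L3MBTL2, of a variant PRC1, at 9.30 (32, 124 and 55), DCAF7 at 7.82 (64, 124 and 86) and ASXL1, a partner of the deubiquitinase BAP1, at 7.68 (101, 256 and 121). These 4 genes were chosen by their dKO fold, which favours a high dKO pileup, and each was highest in dKO NPCs. BOD1L1, a SETD1-associated protein, went the other way, with 41 fragments in WT, 27 in dKO and 42 in dKO NPC + BAF53B.

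Markers of cell types were counted beside these results, because in bulk samples a change in accessibility and a change in the share of a cell type cannot be told apart. Of 10 neural progenitor markers, 2 had a promoter peak in WT (HES1 and VIM), 7 in dKO and 6 in dKO NPC + BAF53B, and PAX6, NES and HES5 had one in no list. SOX1 and SOX2 had none in WT NPCs. Of 5 pluripotency markers 0, 1 and 1 had a promoter peak (LIN28A), of 5 neuronal markers 1, 2 and 1, and of 5 mesenchymal markers 0, 2 and 2. POU5F1 and NANOG had a promoter peak in no list, with POU5F1 inside the stretch of chromosome 6 without peaks. The neural progenitor markers, like the 42 genes, were fewest in the shortest list, and the part of cell composition in the members' peaks was not tested.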

How the data were processed

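ATAC-seq was done on 6 samples of H1-derived cells, in 3 groups of 2 replicates. Per the labels and the study's methods, reads were trimmed with cutadapt 1.13, aligned to hg38 with Bowtie2 2.2.5 and cleaned with SAMtools 1.3.1 and Picard 1.90, and the authors called peaks with MACS2 on pooled replicates. The MACS2 version and options, and whether reads were shifted for Tn5 insertion, are not given in the sources used here. The deposited lists hold for each peak a score, a fold (ratio) of the summit over the local background, −log10 p and −log10 q values and the summit offset, and the smallest −log10 q was 5. Total reads per sample are unknown here. The summit pileup was computed as the whole number that, with the deposited fold, gives the deposited −log10 p, which it matched within 0.002 (on the −log10 p) for 100% of peaks. It was divided by the lowest local background of its list. Intervals (95%) are exact Poisson for pileups and exact conditional for ratios, and cover counting error only, while the summit, being a maximum, is biased upward.

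Gene starts were the 5′ ends of GENCODE 44 gene records, the window was 3000 bp on either side, and an overlap of 1 bp counted. All 50267 peaks lay inside the reference chromosomes. Scripts ran in Python 3.11.15 with pandas 2.3.3, numpy 2.4.6, scipy 1.17.1 and pysam 0.24.0 and were tested on simulated data. No test between groups was made. Members named with values are all 42 genes, of which those with promoter peaks are given in full. For lists, the 4 highest and lowest ratios, the 5 highest folds among peaks absent from WT and the 4 highest folds of other pathway genes were named, and BOD1L1 was chosen after its values were seen. The members and lists were chosen with earlier results of these data known. The alternatives tried were lists of equal length, a minimum −log10 q of 10, a window of 1000 bp, starts of all transcripts, the summit in the window, overlapping peaks only, the deposited fold or −log10 p as the scale and all annotated genes. Further settings were added after the data had been seen. They were the canonical transcript start, the exclusion of members in stretches without peaks and gene body peaks away from protein-coding gene record and member canonical starts.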

Additional observations from a re-analysis of the deposited data

How the results depend on the processing

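The lists hold pooled replicates, so leaving out each replicate could not be run. No paired analysis was possible because each group has 1 pooled list without replicate values. A peak near the threshold can be present in 1 list and absent from another at like accessibility, and depth limits what the lists can show.

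Of 184 comparisons of a member count or median with its value under another setting, 146 stayed within 1.5 times the count, or within 0.1 of the log2 median, and 38 moved further, while no median changed sign. Of the 146, 25 came from leaving out the members in stretches without peaks. Those members have no peak, so that setting could change only the count in no list. Lists of equal length likewise left the WT list as it was. With a −log10 q of at least 10, promoter peaks were found at 6 members in WT (PRC1 1, PRC2 2, COMPASS 2) and 17 in dKO NPC + BAF53B (PRC2 4, KDM6 1, COMPASS 7). In dKO and not in WT there were 20 of the 42 members, beside 28.2% of all genes, so the members were not close to the background at this setting. There were 9 in dKO and not in dKO NPC + BAF53B, 0 the other way and 16 in no list. For these counts no share of all genes was computed. The median log2 ratio of dKO over WT was 0.92, and gene body peaks were found at 3 members in WT and 7 in dKO NPC + BAF53B. The share of all genes with a promoter peak was then 14.3% in WT, 42.3% in dKO and 28.8% in dKO NPC + BAF53B.

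With lists of equal length, 19 members had a dKO promoter peak (PRC1 5, PRC2 5, COMPASS 7), and PRC1 had 6, PRC2 had 4 and KDM6 1 in dKO NPC + BAF53B. There were 7 in dKO and not in WT, beside 9.36% of all genes, and 4 in WT and not in dKO, beside 4.24%. A promoter peak in dKO NPC + BAF53B and not in dKO was found at 5 and in no list at 17, for which no share of all genes was computed. The median log2 ratios were 0.92 for dKO over WT and −0.43 for dKO NPC + BAF53B over dKO, and gene body peaks were found at 9 members in dKO and 7 in dKO NPC + BAF53B.

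With the starts of all transcripts, 8 members were in dKO and not in dKO NPC + BAF53B, 3 had a promoter peak in no list and 10 had a gene body peak in dKO. With canonical starts 5 had a promoter peak in no list. On the deposited fold the median log2 ratio of dKO over WT was 0.52, and on the deposited −log10 p the medians were 1.37 for dKO over WT and −0.40 for dKO NPC + BAF53B over dKO. Away from the starts of protein-coding gene records and the canonical starts of members, gene body peaks were found at 3 members in WT, 10 in dKO and 6 in dKO NPC + BAF53B. Peaks at other transcript starts or at non-coding genes were not removed. The window of 1000 bp, the summit in the window, overlapping peaks only and the exclusion of members in stretches without peaks moved no member count or median beyond these limits, the largest change in a count being from 10 to 7 members in no list once those in stretches without peaks were left out.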
